A study of Mus musculus with 6 samples.

Results

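The genes described here are 49 genes of the cell cycle and of DNA replication in J774 cells, a mouse macrophage line that divides in culture. They were taken by gene symbol from a list drawn up with earlier results of these data known, with a floor on mean level. All 49 passed the filter on low values, out of 13829 genes with a mean of at least 0.5 TPM (transcript abundance per length, scaled to the same total in every library) and 55487 gene identifiers in all. By role, 11 load or form the replicative helicase, 9 belong to the polymerases, primase and sliding clamp, 5 supply deoxynucleotides, 12 are cyclins, cyclin-dependent kinases (CDKs) or E2F factors, and 12 act in mitosis.

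The libraries were poly(A)-selected, stranded RNA-seq libraries from J774 cells given either a control siRNA or an siRNA against NCOA4 by liposome-mediated transfection, with 3 biological replicates of each. The control cells therefore carried the same transfection and a negative-control siRNA, and no untransfected cells were compared. NCOA4, nuclear receptor coactivator 4, is the cargo receptor that takes the iron store ferritin to the lysosome, where its iron is released. Ncoa4 TPM was 19.7, 22.5 and 22.4 in the control libraries and 9.63, 8.60 and 8.88 in the NCOA4 siRNA libraries, so 41.9% of the control level remained and the model is a partial knockdown made with 1 siRNA. All 10 macrophage markers examined were at 0.5 TPM or more, with a summed TPM of 8969 to 9153 in control and 9351 to 9478 in NCOA4 siRNA libraries. The sum hides markers that moved in opposite directions. Mean Mrc1 was 91.8 TPM in control and 167 TPM after NCOA4 siRNA, while mean Cd14 was 1174 and 975 TPM. None of the 5 T cell, 5 B cell, 5 epithelial and 5 fibroblast markers reached that level, and of 5 endothelial markers only Cdh5 did.

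Reads rebuilt from TPM came to between 15502155 and 18282129 per library. Control library 1 stood apart from the other libraries before any comparison. Its genes of the mitochondrial genome took 12.9% of TPM against 9.36% to 10.2% in the other 5 libraries, and its reads over the 49 genes differed from those of control libraries 2 and 3 by a chi-square of 14.4 and 12.3 per gene, against 8.01 between those libraries and 1.90 to 2.37 between NCOA4 siRNA libraries. Of the 49 genes, 17 had their lowest value in control library 1 and 20 had their highest in control library 2.

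A cell that is to divide passes a commitment point in G1, copies its genome once in S phase and separates the copies in mitosis. D cyclins with their kinases, then cyclin E with Cdk2, phosphorylate the retinoblastoma proteins and so free the E2F factors, which drive the genes for replication. Many genes of mitosis are switched on later, through the cell cycle homology region (CHR) bound by the MuvB complex. Replication has a need for iron: ribonucleotide reductase holds a diiron centre, and several replication enzymes carry iron-sulfur clusters. In bulk RNA, fewer cells in a phase and less transcript per cell cannot be told apart.

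The promoters of the list carry words of both kinds, and 3 picked examples are shown. Of the 49 genes, 38 matched a RefSeq promoter of 300 bases (GRCm38.p6, 250 before to 50 after the start site). Capitals mark the E2F words TTTCCCGC or TTTGGCGC and the CHR core TTTGAA, read on both strands, so that TTCAAA is TTTGAA on the other strand. Mcm3, a helicase subunit, holds both E2F words and is the only matched gene that does. Cdk1, the kinase of mitosis, holds the CHR core at 2 places, and Kif11, the spindle motor that fell after NCOA4 siRNA, holds it at 1 place.
Mcm3 (chr1:20820263-20820562, minus strand): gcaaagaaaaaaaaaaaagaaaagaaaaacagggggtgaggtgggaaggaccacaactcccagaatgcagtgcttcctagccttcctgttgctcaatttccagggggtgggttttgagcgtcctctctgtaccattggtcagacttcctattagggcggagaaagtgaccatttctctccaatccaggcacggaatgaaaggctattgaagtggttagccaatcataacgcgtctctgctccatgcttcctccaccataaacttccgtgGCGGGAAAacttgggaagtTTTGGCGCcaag
Cdk1 (chr10:69352863-69353162, minus strand): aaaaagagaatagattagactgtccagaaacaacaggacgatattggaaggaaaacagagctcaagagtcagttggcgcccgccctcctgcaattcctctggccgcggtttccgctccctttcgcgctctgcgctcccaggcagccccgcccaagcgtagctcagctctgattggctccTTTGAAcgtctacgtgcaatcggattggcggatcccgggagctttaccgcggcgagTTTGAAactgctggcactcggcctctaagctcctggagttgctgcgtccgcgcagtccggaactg
Kif11 (chr19:37376132-37376431, plus strand): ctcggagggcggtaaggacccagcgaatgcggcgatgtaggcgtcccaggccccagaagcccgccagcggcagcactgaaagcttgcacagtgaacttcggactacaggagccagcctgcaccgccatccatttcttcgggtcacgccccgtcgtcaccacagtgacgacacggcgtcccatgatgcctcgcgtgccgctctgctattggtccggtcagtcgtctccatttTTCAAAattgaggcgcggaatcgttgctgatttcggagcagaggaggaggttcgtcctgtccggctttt

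An E2F word stood in the promoters of 6 of 8 licensing and helicase genes (75%), 3 of 7 polymerase, primase and clamp genes and 2 of 8 cyclin, CDK and E2F genes. It stood in 0 of 4 deoxynucleotide genes and 0 of 11 mitosis genes. The share was 1.80% over the promoters of 27025 genes and 3.65% over those of 9093 tested genes. The CHR core stood most often in the mitosis genes: it stood in 8 of 11 mitosis genes (72.7%), 3 of 8 cyclin, CDK and E2F genes, 2 of 8 licensing genes (25%), 0 of 7 polymerase genes and 0 of 4 deoxynucleotide genes, against 20.2% of all genes and 14.7% of tested genes. Of the 3 genes that fell, Kif11 held the CHR core, Ccne1 held neither word and Ccnd1 was not matched. The 11 genes with an E2F word had a median log2 fold change of -0.020, and none of them passed an adjusted p of 0.05 with limma. The 13 with the CHR core had a median of -0.029, and 1 of them, Kif11, passed. Among further genes of the same pathways, an E2F word stood in 6 of 34 replication genes (17.65%) and 4 of 40 mitosis genes (10%). The CHR core stood in 6 of those 34 (17.65%) and 30 of those 40 (75%). A word is a match of letters and not a mapped binding site. Only these exact words were sought, so their absence does not show that a factor does not bind.

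The transcripts of the list were abundant in both groups. The highest mean over the 6 libraries was 534 ± 27.8 TPM (SD, n = 6) for Pcna, the sliding clamp, which lay at percentile 98.3 of all tested genes. Mcm5 followed with 407 ± 5.78 TPM, then Mcm3 with 377 ± 7.22 TPM, Mcm6 with 328 ± 15.5 TPM and Cdc20, an activator of the anaphase-promoting complex, with 316 ± 29.99 TPM. The ranges of Pcna, Mcm5, Mcm3 and Mcm6 did not overlap, whereas those of Mcm6 and Cdc20 did. At the lower end stood the polymerase epsilon subunit Pole with 22.0 ± 0.972 TPM, E2f2 with 19.7 ± 0.496 TPM and Rrm2b with 3.91 ± 0.413 TPM. Rrm2b was the only one of the 49 under percentile 50 of all tested genes, at percentile 24.0.

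**Figure D1:**
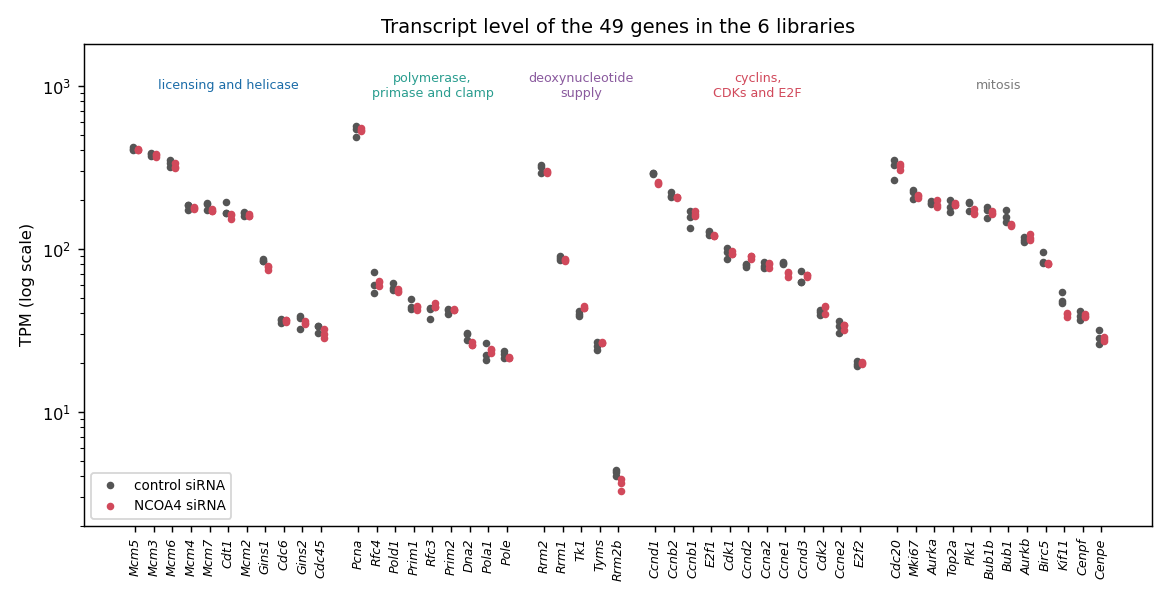
TPM (log axis) of each of the 49 genes in the 3 control siRNA libraries (grey points) and the 3 NCOA4 siRNA libraries (red points), grouped by role and ordered by mean level within each role. Levels run from 534 TPM for Pcna down to 3.91 TPM for Rrm2b, and for most genes the grey and red points cover one another.

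The question asked of the 49 genes was whether their transcripts differed between cells with control and NCOA4 siRNA. Of all 13829 tested genes, 5.42% passed an adjusted p of 0.05 with limma and Benjamini-Hochberg adjustment, 3.11% higher and 2.31% lower after NCOA4 siRNA. Of the 49, 3 passed (6.12%), all lower: cyclin D1 (Ccnd1), cyclin E1 (Ccne1) and Kif11. None was higher by limma, although 2 were at an unadjusted p under 0.05, Ccnd2 and Tk1. With limma-voom on the rebuilt reads 4 of the 49 passed, 1 higher, Ccnd2, and 3 lower. Of all genes tested by limma-voom, 10.9% passed, 6.91% higher and 4% lower. None of the 49 passed limma with a fold change above 1.5, which 1.18% of all tested genes did. At an unadjusted p under 0.05 there were 9 of the 49 (18.4%) against 21.6% of all tested genes.

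Fitted log2 fold changes lay between -0.32 and 0.17, with a median of -0.029 against 0.031 over all tested genes. Of the 49, 31 were below 0 and 18 above, against 5896 below and 7933 above over all 13829 tested genes. The whole 95% interval lay inside a 1.5-fold change in either direction for all 49, against 72.4% of all tested genes and 89.1% of the 10505 tested genes at or above the level of Rrm2b. It lay inside a 1.25-fold change for 47 of them, all but Kif11 and Rrm2b, against 60.8% of those 10505 genes. Levels differed between these sets, with a median of mean TPM of 83.8 for the 49 and 27.7 for the 10505. Among 134 further tested genes of the same pathways, the interval lay inside 1.5-fold for all 134 and inside 1.25-fold for 88.1%. The part of level in these shares was not tested. For the 49 genes, the median width to either side of the estimate was 0.127 on the log2 scale. The 2 groups of libraries did not overlap for 12 of the 49 (24.5%), 3 higher and 9 lower, against 28.4% of all tested genes, 16.6% higher and 11.8% lower. The median of the 49 was -0.045 without control library 1 and -0.0036 without control library 2. Without control library 1 the same 3 genes passed, against 6.06% of all tested genes, 2.78% lower. Then 22 of the 49 did not overlap, 4 higher and 18 lower, against 39% of all tested genes, 20.7% higher and 18.3% lower. With each library centred on its median, which moved the median of all tested genes by 0.058, 6 of the 49 passed, all lower, against 7.01% of all tested genes, 2.52% higher and 4.5% lower. Under that centring 22 of the 49 did not overlap, 1 higher and 21 lower, against 30.4% of all tested genes, 10.7% higher and 19.7% lower.

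**Figure D2:**
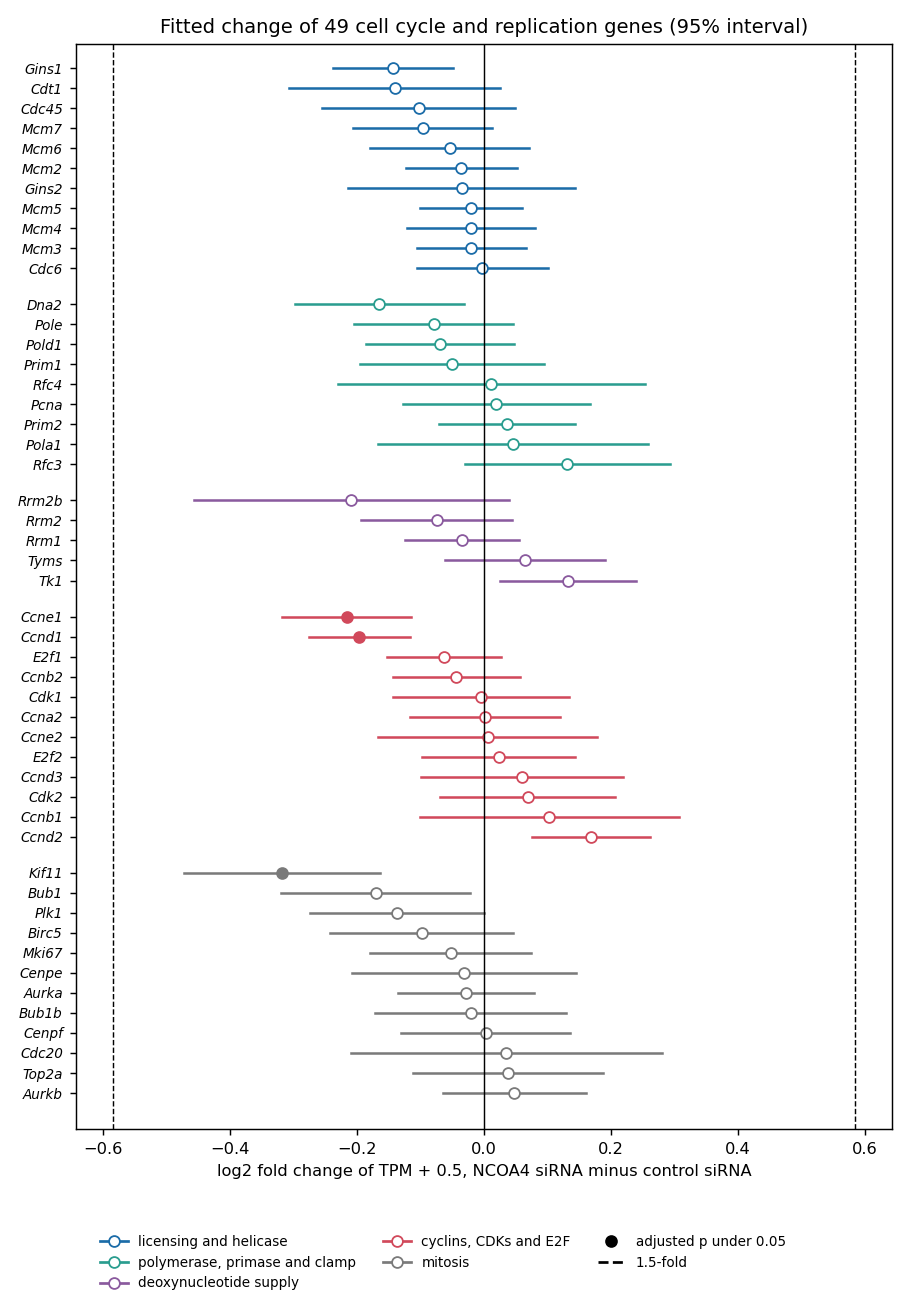
Fitted log2 fold change of TPM + 0.5, NCOA4 siRNA minus control siRNA, for each of the 49 genes, with its 95% interval from limma over 3 libraries per group. Filled points mark the 3 genes with an adjusted p under 0.05 (Ccne1, Ccnd1 and Kif11), dashed lines mark a 1.5-fold change, and no interval reaches them.

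The D cyclins receive growth signals and open the cycle, and they did not move together. Ccnd1 (ENSMUSG00000070348, mm10 chr7:144929931-144939925, minus strand) was at 287, 291 and 289 TPM in control libraries and at 257, 248 and 252 TPM in NCOA4 siRNA libraries. The control values lay within a few TPM of each other, and every NCOA4 siRNA value lay below them. These rest on 6363 to 8307 rebuilt reads per library. The mean fell from 289 ± 1.81 to 252 ± 4.61 TPM (SD, n = 3 each), or 87.3% of control, with a log2 fold change of -0.20 (SE 0.034, limma adjusted p = 0.0239). With 1 library left out the log2 fold change stayed between -0.21 and -0.18. The limma adjusted p was 0.0182 without control library 1, and above 0.05 without control library 2 (0.0581), control library 3 (0.0646), or NCOA4 siRNA library 1 (0.0928), 2 (0.13) or 3 (0.115). It was 0.0781 without a trend in the prior variance.

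Cyclin D2 (Ccnd2, chr6:127125162-127152193, minus strand) was at 79.1, 80.9 and 77.3 TPM in control libraries and at 90.1, 86.5 and 90.3 TPM after NCOA4 siRNA. Here every NCOA4 siRNA library lay above every control library. The log2 fold change was 0.17 (SE 0.039) with a limma adjusted p of 0.0601, which limma-voom put at 0.0126. Cyclin D3 (Ccnd3) was at 62.4, 62.0 and 72.7 TPM against 68.9, 67.2 and 68.9 TPM, and its groups overlapped.

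The share of each D cyclin among the 3 does not depend on how a library is scaled. Ccnd1 made up 67.0%, 67.1% and 65.8% of their summed TPM in control libraries and 61.8%, 61.7% and 61.3% in NCOA4 siRNA libraries. Its share was lower in every NCOA4 siRNA library, by several times the spread within either group (66.6 ± 0.699% against 61.6 ± 0.301%, SD, n = 3 each). Ccnd2 made up 18.4%, 18.6% and 17.6% in control and 21.6%, 21.5% and 22.0% in NCOA4 siRNA libraries. The ratio of Ccnd1 TPM to Ccnd2 TPM was 3.66 ± 0.0737 in control and 2.84 ± 0.0432 after NCOA4 siRNA. Summed over the 3 D cyclins the level was 434 ± 5.02 TPM in control and 410 ± 7.33 TPM after NCOA4 siRNA. These ratios were chosen after the values of the genes were seen and are descriptions.

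**Figure D3:**
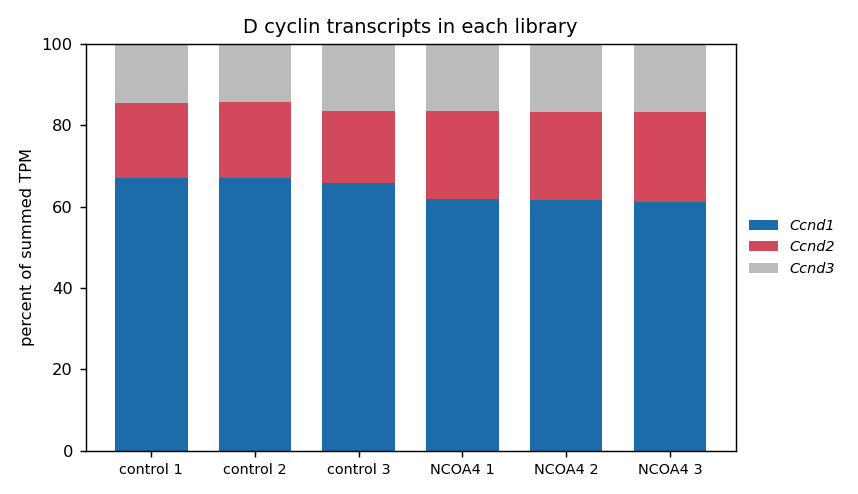
Share of each D cyclin in the summed TPM of Ccnd1, Ccnd2 and Ccnd3 (percent, stacked bars) in each of the 6 libraries. The Ccnd1 share is 65.8% to 67.1% in control and 61.3% to 61.8% in NCOA4 siRNA libraries, and the Ccnd2 share lies higher in the latter.

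Cyclin E1 (Ccne1, ENSMUSG00000002068, chr7:38097984-38107534, minus strand), the partner of Cdk2 at the entry to S phase, was at 80.5, 81.3 and 82.6 TPM in control libraries and at 71.1, 67.0 and 72.3 TPM after NCOA4 siRNA. The groups were well apart, on 971 to 1311 rebuilt reads per library. The mean fell from 81.5 ± 1.08 to 70.1 ± 2.79 TPM, or 86.0% of control, with a log2 fold change of -0.22 (SE 0.043, limma adjusted p = 0.0373). The limma adjusted p was 0.0436 without control library 1, and above 0.05 without control library 2 (0.0780), control library 3 (0.0978), or NCOA4 siRNA library 1 (0.126), 2 (0.147) or 3 (0.1002), and it was 0.0905 without a trend in the prior variance. Its paralogue cyclin E2 (Ccne2) was at 36.1, 33.3 and 30.3 TPM against 34.1, 31.7 and 34.1 TPM, with the groups overlapping. Ccne1 made up 71.1 ± 2.06% of the summed TPM of the E cyclins in control and 67.8 ± 0.212% after NCOA4 siRNA.

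The other cyclins, kinases and E2F factors stayed within overlapping groups. Cyclin A2 (Ccna2), which serves S phase and G2, was at 78.3, 82.9 and 76.0 TPM against 81.3, 75.8 and 80.3 TPM. Cyclin B1 (Ccnb1), which drives entry into mitosis, was at 134, 170 and 157 TPM against 170, 164 and 159 TPM, and its low control value is that of library 1, without which its log2 fold change went from 0.10 to 0.0068. Cdk1 was at 86.8, 95.9 and 100.3 TPM against 92.5, 96.1 and 93.0 TPM. E2f1, an activator of replication genes, was at 129, 122 and 127 TPM against 122, 119 and 120 TPM, with a log2 fold change of -0.063 (SE 0.038, limma adjusted p = 0.386). Of the 12 genes of the class, 2 were lower (16.7%) and 0 higher by limma at an adjusted p under 0.05. Over all tested genes 2.31% were lower and 3.11% higher. The median log2 fold change of the 12 was 0.0036, and Ccnb2, Cdk2 and E2f2 had limma adjusted p-values from 0.546 to 0.835.

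**Figure D4:**
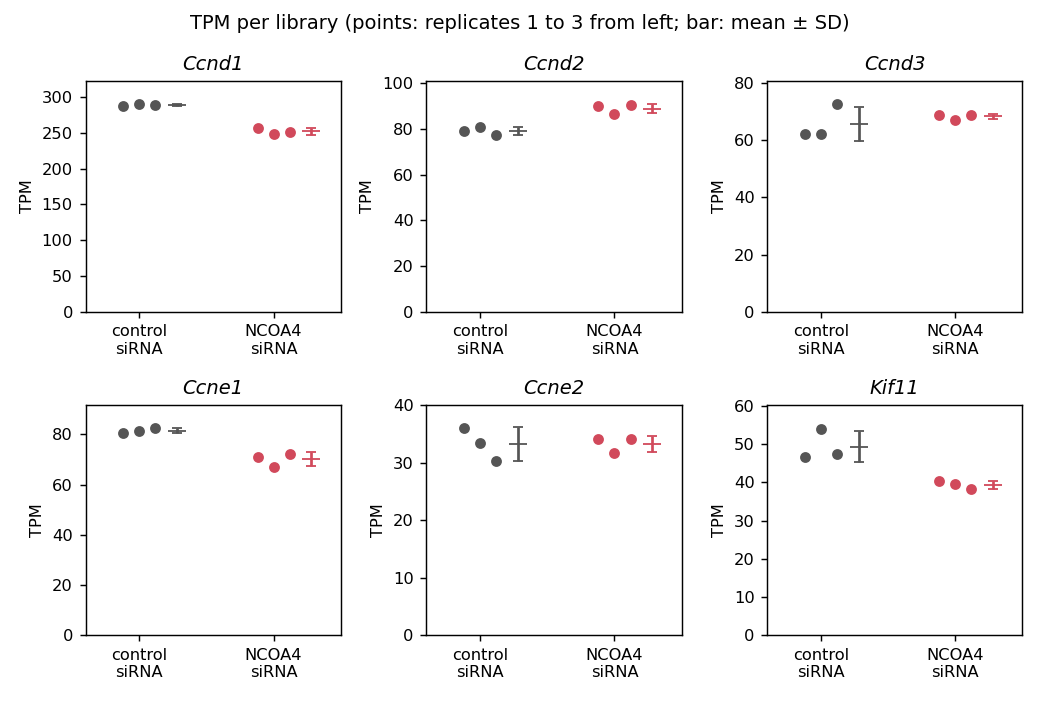
TPM in each library of the D and E cyclins and Kif11, with control siRNA in grey and NCOA4 siRNA in red, each axis starting at 0 and bars giving mean ± SD of 3 libraries. The groups are apart, with NCOA4 siRNA lower, for Ccnd1, Ccne1 and Kif11, apart with NCOA4 siRNA higher for Ccnd2, and overlapping for Ccnd3 and Ccne2.

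Kif11 (ENSMUSG00000012443, chr19:37376403-37421859, plus strand) encodes the kinesin-5 motor that pushes the spindle poles apart, and it had the lowest fold change of the 49. Its TPM was 46.5, 54.0 and 47.5 in control libraries and 40.3, 39.6 and 38.2 in NCOA4 siRNA libraries, from 1609 to 2441 rebuilt reads. Control library 2 was the high value, and all NCOA4 siRNA libraries lay under the lowest control. The mean fell from 49.3 ± 4.06 to 39.4 ± 1.06 TPM, or 79.9% of control, with a log2 fold change of -0.32 (SE 0.065, 95% interval -0.47 to -0.16, limma adjusted p = 0.0405). The limma adjusted p was 0.0335 without control library 1, and above 0.05 without control library 2 (0.0513, log2 fold change -0.25), control library 3 (0.0765), or NCOA4 siRNA library 1 (0.123), 2 (0.141) or 3 (0.150). It was also above 0.05 with no filter on low values (0.0654) and without a trend in the prior variance (0.0874). Against Top2a, a topoisomerase of chromosome separation, the Kif11 ratio was 0.276, 0.271 and 0.263 in control and 0.211, 0.212 and 0.208 in NCOA4 siRNA libraries. This ratio was chosen after the values were seen and is a description of the same difference, free of library scaling.

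The 3′ untranslated region of Kif11 holds GAATGCC, a word of 7 bases that also occurs in the coding sequence of Ncoa4 and was looked for because of earlier results of these data. It is shown with the site in Dna2, the only other of the 49 genes that holds the word and whose groups did not overlap, and with capitals on the word.
Kif11 (chr19:37420706-37420712, plus strand): gtattggtGAATGCCatctcctt
Dna2 (chr10:62973389-62973395, plus strand): ttttctgtGAATGCCacccttaa
The word stood in the 3′ untranslated region of 6 of the 49 genes (12.2%), namely Kif11, Dna2, Mcm7, Pold1, Prim1 and Gins2, against 9.35% of 10772 tested genes with such a region annotated. The longest such region had a median of 606 bases for the 49 and 1321 for those tested genes. The shares are not adjusted for this length. All 6 holders among the 49 had a fitted log2 fold change below 0, with a median of -0.083, against -0.020 for the other genes of the list. The 10 holders among 134 further genes of the same pathways had a median of -0.0013, against -0.0087 for those without the word, and Samhd1, at 0.23 and named after its value was seen, was the highest of them. Over all tested genes the medians were -0.0065 with and 0.029 without the word. Among genes past an adjusted p of 0.05 by limma with such a region annotated, it stood in 20.7% of 294 lower and 8.14% of 393 higher ones. As the word was chosen with these data known, these shares are descriptions and no independent support. With every gene that holds the word left out, 43 of the 49 were tested, and Ccnd1 and Ccne1 passed, both lower. Of all 12822 genes in that run, 4.72% passed, 1.86% lower. The siRNA sequence was not used here, and the part of the word in these values was not tested.

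Licensing loads the double ring of Mcm2 to Mcm7 at origins through Cdc6 and Cdt1, and Cdc45 and the GINS complex turn it into the active helicase. None of the 11 genes passed with limma or limma-voom, and 1, Gins1, was at an unadjusted p under 0.05. All 11 were fitted below 0, with a median log2 fold change of -0.035. Over all 13829 tested genes, 5896 were fitted below 0. Among the 11, Mcm3 and Mcm5 turned to 0.0017 and 0.0070 under quantile normalization and Cdc6 to 0.0058 with limma-voom. The 6 Mcm genes lay between -0.096 for Mcm7 and -0.020 for Mcm3. The ring has 1 copy of each subunit, while the TPM means over all libraries were 162 for Mcm2, 178 for Mcm7, 179 for Mcm4, 328 for Mcm6, 377 for Mcm3 and 407 for Mcm5. In TPM, Mcm5 exceeded Mcm2 by a ratio of 2.50 ± 0.0703 in control and 2.53 ± 0.0173 after NCOA4 siRNA (exact permutation test, n = 3 each, p = 0.6). The smallest p of this test is 0.1, so it could not have called a difference at 0.05. TPM divides reads by the annotated exon length, 6956 bases for Mcm2 and 3993 for Mcm5, so levels of different genes depend on it. In control library 1 the rebuilt reads were 6601 for Mcm2 and 9236 for Mcm5. Annotated transcripts of other genes share 18.1% of the 50-base words of Mcm7, 19.1% of those of Pcna and 23.4% of those of Ccnb1, the most with Gm5487, Pcna-ps2 and Ccnb1-ps, so the counting could split the reads of these genes.

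Gins1, a subunit of GINS, was at 86.7, 83.7 and 83.4 TPM in control and 78.1, 77.2 and 74.3 TPM after NCOA4 siRNA, with no overlap, and had a log2 fold change of -0.14 (SE 0.040, limma adjusted p = 0.0954). With median centring the limma adjusted p was 0.0486. Its partner Gins2 was at 32.0, 38.5 and 37.8 TPM against 34.9, 36.1 and 34.4 TPM, and overlapped. Cdt1 was at 164, 166 and 193 TPM against 160, 151 and 162 TPM, apart by little and with control library 3 high (log2 fold change -0.14, SE 0.070, limma adjusted p = 0.305, and -0.065 without that library).

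Among the polymerases, primase and clamp, none of the 9 genes passed with limma or limma-voom, 1, Dna2, was at an unadjusted p under 0.05, and 5 were fitted above and 4 below 0. Dna2, a nuclease and helicase that trims Okazaki fragments, was at 27.3, 29.9 and 30.3 TPM in control and 25.5, 26.7 and 25.7 TPM after NCOA4 siRNA. The groups did not overlap, and its log2 fold change was -0.16 (SE 0.056, limma adjusted p = 0.155, or 0.0439 with median centring). Rfc3, a subunit of the clamp loader, was at 37.0, 43.1 and 42.6 TPM against 43.8, 46.5 and 44.0 TPM, with the low control value from library 1 (log2 fold change 0.13, SE 0.068, limma adjusted p = 0.323, and 0.061 without that library). Pcna was at 484, 564 and 544 TPM against 531, 553 and 528 TPM. Pola1, which with primase starts each new strand, was at 20.7, 26.3 and 22.2 TPM against 24.4, 23.7 and 23.0 TPM. In Pcna and Pola1 control library 1 was the lowest of the 6 libraries, and without it their log2 fold changes turned from 0.019 to -0.045 and from 0.045 to -0.027.

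Ribonucleotide reductase makes deoxynucleotides from its large subunit Rrm1 and a small subunit, Rrm2 in S phase or the p53-regulated Rrm2b. None of the 5 genes of deoxynucleotide supply passed with limma or limma-voom, and 1, Tk1, was at an unadjusted p under 0.05. Rrm2 was at 291, 327 and 316 TPM in control and 294, 299 and 291 TPM after NCOA4 siRNA (log2 fold change -0.075, SE 0.050, limma adjusted p = 0.440). Rrm2 made up 98.7 ± 0.135% of the small-subunit TPM in control and 98.8 ± 0.107% after NCOA4 siRNA. The ratio of Rrm2 to Rrm1 was 3.56 ± 0.196 against 3.46 ± 0.0169 (exact permutation test, n = 3 each, p = 0.4, smallest possible p 0.1). These values also depend on the annotated exon lengths, 2771 bases for Rrm2, 9134 for Rrm2b and 11012 for Rrm1. Rrm2b was at 4.39, 4.03 and 4.26 TPM against 3.26, 3.66 and 3.86 TPM, so that the groups were apart at a low level, with a log2 fold change of -0.21 (SE 0.10, limma adjusted p = 0.307). Thymidine kinase (Tk1) was at 38.5, 39.5 and 41.4 TPM against 43.2, 43.1 and 44.7 TPM, with no overlap and a log2 fold change of 0.13 (SE 0.045, limma adjusted p = 0.156). Thymidylate synthase (Tyms) overlapped between the groups.

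Rrm2, Rrm2b, Pold1, Pole, Prim2 and Dna2 encode proteins that carry an iron centre or iron-sulfur cluster. None of these 6 passed with limma or limma-voom, and 1, Dna2, was at an unadjusted p under 0.05. Their median log2 fold change was -0.077, 5 were fitted below 0, and the groups were apart, both lower, for Rrm2b and Dna2 only, or 33.3% of them, against 28.4% of all tested genes, 11.8% lower. Pold1, the catalytic subunit of polymerase delta, was at 57.1, 55.6 and 61.4 TPM against 54.2, 55.2 and 56.2 TPM. Pole was at 22.7, 23.6 and 21.5 TPM against 21.5, 21.2 and 21.3 TPM. Prim2, the large primase subunit, was at 42.0, 42.5 and 39.5 TPM against 42.0, 42.8 and 42.3 TPM. Their 95% intervals reached from -0.46 for Rrm2b to 0.14 for Prim2 on the log2 scale.

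Besides Kif11, none of the mitosis genes passed with limma or limma-voom, and Bub1 and Plk1 were at an unadjusted p under 0.05. Bub1, a kinase of the spindle checkpoint, was at 146, 173 and 155 TPM in control and 141, 142 and 138 TPM after NCOA4 siRNA. The groups were apart, with control library 2 high, and the log2 fold change was -0.17 (SE 0.063, limma adjusted p = 0.181, or 0.0462 with median centring), and -0.11 without that library. Birc5, or survivin, was at 94.95, 82.0 and 83.3 TPM against 80.8, 81.1 and 80.6 TPM, a gap that is narrow except for control library 1, without which its log2 fold change went from -0.098 to -0.032. Plk1, a kinase of mitotic entry, was at 191, 170 and 192 TPM against 166, 174 and 162 TPM, overlapping through control library 2.

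Mki67, which encodes the proliferation antigen Ki-67, was at 227, 223 and 201 TPM in control and 205, 210 and 213 TPM after NCOA4 siRNA, with the groups overlapping (log2 fold change -0.053, SE 0.053, limma adjusted p = 0.619). Top2a was at 168, 199 and 180 TPM against 191, 186 and 184 TPM. Cdc20 was at 264, 325 and 351 TPM against 321, 304 and 332 TPM, and its control values spread more than the difference between the groups. The remaining mitosis genes, Aurka, Aurkb, Bub1b, Cenpe and Cenpf, had limma adjusted p-values from 0.608 to 0.988. The 12 genes had a median log2 fold change of -0.030, and 8 were fitted below 0.

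A wider list of 138 further genes of the same pathways, assembled with earlier results known, held 134 tested genes, and Cdkn1c, Cdkn2a, Cdkn2b and Ccna1 were listed at 0 in all 6 libraries. By limma 2 were higher and 2 lower at an adjusted p under 0.05 (2.99%), none with a fold change above 1.5. None of 40 further replication genes, 10 nucleotide genes and 48 mitosis genes passed, with 5, 1 and 4 of them at an unadjusted p under 0.05. All 4 that passed were among the 36 regulators of the cycle that were tested (11.1%). Over all tested genes the shares were 5.42% at an adjusted and 21.6% at an unadjusted p under 0.05.

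Mybl2, or B-Myb, which joins MuvB to activate genes of S phase and mitosis, was at 168, 153 and 164 TPM in control and 119, 121 and 122 TPM after NCOA4 siRNA, and fell by 0.42 on the log2 scale (SE 0.045, limma adjusted p = 0.00597). Cdk6, a kinase partner of the D cyclins, was at 30.1, 31.7 and 28.1 TPM against 25.2, 24.0 and 23.5 TPM, and fell by 0.30 (SE 0.060, limma adjusted p = 0.0368). Both had every NCOA4 siRNA library below every control library. Rbl2, or p130, a retinoblastoma-family repressor found in resting cells, was at 18.5, 19.0 and 20.2 TPM against 26.2, 25.2 and 24.4 TPM, and rose by 0.39 (SE 0.055, limma adjusted p = 0.0143). Cyclin G1 (Ccng1), a target of p53, was at 249, 259 and 243 TPM against 312, 304 and 311 TPM, and rose by 0.30 (SE 0.038, limma adjusted p = 0.00932). Cdkn1a, or p21, a CDK inhibitor that p53 also targets, was at 274, 264 and 282 TPM against 280, 276 and 288 TPM, with overlapping groups (limma adjusted p = 0.592). Cdkn1a was named although it did not pass, and a part of p53 in these values was not tested.
Of these 4, Mybl2 passed under every alternative run, with limma adjusted p-values up to 0.0448. With 1 library left out Rbl2 and Ccng1 had a limma adjusted p above 0.05 without each 1 of the 3 NCOA4 siRNA libraries (0.0567 to 0.0765 for Rbl2, 0.0540 to 0.0649 for Ccng1). That of Cdk6 was above 0.05 without control library 1 (0.0624) or 2 (0.0776) or any 1 NCOA4 siRNA library (0.102 to 0.143), with no filter on low values (0.0575) and without a trend in the prior variance (0.0740).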

How the data were processed

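Stranded poly(A) libraries of J774 cells with control or NCOA4 siRNA (3 biological replicates each) were analysed, grouped by their labels. The authors deposited TPM per gene and library. The submitters' processing notes name Trimmomatic (0.33), FastQC, HISAT2 (2.1.0), featureCounts, edgeR and the mm10 build, while the annotation release was not given in the sources used here. GENCODE M21 (GRCm38) named 55227 of 55487 identifiers, and 260 had no name. Reads were rebuilt from TPM and GENCODE exon lengths, and of 21055 named genes above 0, 98.7% were whole within 0.05 in all 6 libraries.

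The test, for genes averaging 0.5 TPM or above, was limma (3.58.1, R 4.3.3) on log2(TPM + 0.5), as lmFit then trended eBayes, with p-values adjusted by Benjamini-Hochberg over 13829 genes. Fold changes are on this scale, which understates changes of low genes. Levels, shares and ratios of different genes depend on the annotated exon lengths. The fit was tried beforehand on simulated data with equal noise in all 6 libraries. No simulated library stood apart as control library 1 did, so that trial does not cover such a spread. Ratios between genes were chosen after seeing the values, and those of Mcm5 to Mcm2 and Rrm2 to Rrm1 were compared by an exact two-sided permutation test over 20 arrangements, whose smallest p is 0.1. Promoters are from RefSeq (GRCm38.p6), and 3′ untranslated regions, transcripts and positions from GENCODE M21.

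The genes and lists were chosen with earlier results of these data known. Any of the 49 could be named, those with an adjusted p under 0.05 with every library's value, and up to 6 such genes of each further list. Samhd1, Cdkn1a and the genes at 0 were named outside this rule. Alternatives were pseudocounts of 0.1 and 1, other filters, median centring, quantile normalization, removal of the mitochondrial genome, no trend, limma-voom on the rebuilt reads, a replicate block and each library left out. The removal of genes with GAATGCC, and the alternatives for genes outside the 49, were chosen after seeing the data. P-values measure the spread between these libraries.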

Additional observations from a re-analysis of the deposited data

How the results depend on the processing

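The calls among the 49 genes moved with several settings. Of all tested genes 163 passed an adjusted p of 0.05 with a 1.5-fold change, and 87 with the replicate block, under which 0 of the 49 and 1.16% of all tested genes passed an adjusted p of 0.05, and Cdk6 (0.0946), Rbl2 (0.0801) and Ccng1 (0.0633) did not, by limma. Samples with the same number deviated together with correlations of only 0.028, -0.019 and 0.023, and not every sample correlated best with its own number. These values gave no sign of pairing by number, but 3 libraries per group cannot exclude it. Without a trend 0 of the 49 and 2.92% of all tested genes passed, and with median centring 6 of the 49 passed, 22 did not overlap and the median log2 fold change was -0.086. With 1 library left out, 93 to 173 of all tested genes passed with a 1.5-fold change, 0 to 3 of the 49 passed an adjusted p of 0.05, against 1.26% to 6.06% of all tested genes, and 14 to 22 did not overlap, against 35.9% to 41.5%. The count of the 49 with a 1.5-fold change was 0 throughout. The cause of these shifts was not tested.

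Genes whose small fold change turned sign were these, on the log2 scale. Limma-voom gave 0.0058 for Cdc6 and 0.0046 for Cdk1. Quantile normalization gave 0.0017 for Mcm3, 0.0070 for Mcm5, -0.029 for Ccne2, -0.0074 for Ccna2, -0.016 for E2f2 and -0.020 for Cenpf. Median centring gave -0.012 for Pola1, -0.021 for Prim2, -0.038 for Pcna, -0.046 for Rfc4, -0.052 for Ccne2, -0.056 for Ccna2, -0.035 for E2f2, -0.020 for Top2a, -0.0100 for Aurkb, -0.023 for Cdc20 and -0.056 for Cenpf. Removal of the mitochondrial genome gave -0.0030 for Rfc4, -0.0089 for Ccne2, -0.013 for Ccna2 and -0.012 for Cenpf. With 1 library left out the ranges were -0.024 to 0.015 for Cdc6, -0.12 to 0.012 for Gins2, -0.027 to 0.14 for Pola1, -0.089 to 0.0085 for Prim1, -0.045 to 0.064 for Pcna, -0.085 to 0.12 for Rfc4, -0.058 to 0.066 for Ccne2, -0.026 to 0.036 for Ccna2, -0.063 to 0.040 for Cdk1, -0.00074 to 0.050 for E2f2, -0.018 to 0.10 for Top2a, -0.088 to 0.030 for Bub1b, -0.084 to 0.12 for Cdc20, -0.095 to 0.042 for Cenpe and -0.039 to 0.049 for Cenpf.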
